A study of Mus musculus with 11 samples.

Results

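The Usp genes encode the ubiquitin-specific proteases, a large class of enzymes that remove ubiquitin from other proteins. Their RNA was measured in late 2-cell mouse embryos on Affymetrix whole-transcript arrays. A gene counted as a member when the deposited annotation gave its probe set a single symbol made of Usp followed directly by a digit. This rule found 51 genes, read by 53 probe sets, among 21249 genes with such a probe set. Usp24 and Usp54 had a pair of probe sets each, and the brighter by mean over all 11 arrays stood for the gene. The probe sets were therefore chosen by the members' mean levels, which are given only as a description, while the group labels were not used.

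Each array held RNA from a pool of 40 embryos taken from several mice on a mixed 129/Sv and C57BL/6J background. Control embryos came from eggs that lacked Ring1 and kept Rnf2, and mutant embryos from eggs that lacked both; sperm was wild type throughout, so the embryos of all groups shared the loss of maternal Ring1. Both genotypes were studied without treatment (3 control and 3 mutant arrays) and after culture in α-amanitin, which blocks RNA polymerase II (3 control and 2 mutant arrays). Treated embryos entered medium with 24 µg/ml of the drug 6 h after fertilization and were harvested at 35 h; when untreated embryos were harvested the labels do not say. The labels' protocols do not name the Cre or promoter behind the Rnf2 loss.

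A ubiquitin-specific protease opens the bond between ubiquitin and its target and so sets how long the mark stays. Some members act on the single ubiquitin that chromatin enzymes place on histones H2A and H2B. Ring1 and Rnf2 are the ligase subunits of Polycomb repressive complex 1 (PRC1), which places that mark on H2A, and Usp16, Usp3 and Usp21 are among the enzymes known to remove it. Late 2-cell embryos carry RNA made in the egg beside RNA that the embryo's own genome has begun to make.

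Promoters of 4 of the 5 members that moved the same way between genotypes without and with the drug are shown first, because the results turn on these genes; the window of the other, Usp32, lies inside that gene's annotated span and is not shown. The sequences are RefSeq's on build GRCm38.p6 and run 5′ to 3′ toward the start of transcription that its table uses, without bases inside the gene's annotated span. Capitals mark GGATTA (the core read by Otx-type homeodomain proteins), CCAAT (read by NF-Y), GGGCGG (read by Sp factors) and CCGGAA (read by ETS factors), each searched on both strands, and some of these matches overlap. The Usp16 window (chr16:87454735-87454984, plus strand) precedes a gene that was lower in mutants. The windows of Usp3 (chr9:66593149-66593365, minus strand), Usp46 (chr5:74068412-74068661, minus strand) and Usp52 (chr10:128303085-128303332, plus strand) precede genes that were higher.
Usp16: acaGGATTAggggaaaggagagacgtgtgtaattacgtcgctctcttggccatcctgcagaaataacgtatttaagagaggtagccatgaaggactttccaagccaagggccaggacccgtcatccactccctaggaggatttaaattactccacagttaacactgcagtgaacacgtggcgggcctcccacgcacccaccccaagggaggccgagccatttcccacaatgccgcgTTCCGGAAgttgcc
Usp3: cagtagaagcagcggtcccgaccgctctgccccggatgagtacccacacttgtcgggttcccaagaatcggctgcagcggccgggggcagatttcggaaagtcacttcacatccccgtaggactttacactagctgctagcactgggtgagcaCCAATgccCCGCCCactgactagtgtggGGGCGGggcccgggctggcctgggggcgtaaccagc
Usp46: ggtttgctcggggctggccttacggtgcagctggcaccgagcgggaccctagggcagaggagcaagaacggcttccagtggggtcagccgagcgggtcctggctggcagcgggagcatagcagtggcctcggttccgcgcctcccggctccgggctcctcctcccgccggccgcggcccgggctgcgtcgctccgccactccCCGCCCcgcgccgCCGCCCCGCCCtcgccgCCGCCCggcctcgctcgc
Usp52: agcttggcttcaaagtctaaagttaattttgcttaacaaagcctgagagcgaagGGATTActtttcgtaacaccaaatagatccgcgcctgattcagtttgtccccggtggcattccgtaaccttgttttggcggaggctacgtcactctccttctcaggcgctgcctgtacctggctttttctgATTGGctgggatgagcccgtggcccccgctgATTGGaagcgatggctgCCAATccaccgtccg
The Usp16 window held GGATTA and CCGGAA, that of Usp3 CCAAT and GGGCGG, that of Usp46 GGGCGG alone, and that of Usp52 GGATTA and CCAAT. Over the 250 bases before the start, 39 of the 51 members matched the promoter table, and 64.1% of these windows held GGGCGG beside 32.9% of all 27025 promoters. CCGGAA was present in 28.2% of them beside 12.2%, GGATTA in 12.8% beside 6.38%, and CCAAT in 25.6% beside 34.5%. The Usp windows were also richer in CpG, with a median of 24 CpG sites beside 6 and a median GC content of 65.2% beside 52%. A match describes letters in the window and is no evidence of binding.

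Rnf2, the gene deleted in mutant eggs, checked the labels. It read 6.84, 6.59 and 6.70 (log2) on the untreated control arrays and 5.00, 5.17 and 5.08 on the untreated mutant arrays. With α-amanitin they were 7.31, 6.89 and 7.02 in control and 5.18 and 5.24 in mutant arrays, so the genotypes did not overlap in either condition. The differences were -1.63 (SE 0.11) and -1.86 (SE 0.13), with limma's adjusted p of 7.97e-06 and 2.99e-05, and the labels do not say whether the probe set lies in the deleted part. Of 10 measured markers of oocytes and 2-cell embryos, 8 to 10 lay above the array's 75th percentile on every array of each group, compared with 0 or 1 of 12 cumulus and granulosa cell markers and 0 or 1 of 6 sperm markers. Array medians lay between 4.45 and 4.55. The share of probe sets above 6 was 15.1% to 16.1% on untreated control arrays and 11.9% to 12.9% on untreated mutant arrays. It was 11.2% to 12.6% on treated control arrays, and among treated mutants 11.0% for replicate 1 and 14.2% for replicate 2.

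The Usp genes covered a wide range of signal. On all 11 arrays, 27 members lay above the array's 75th percentile, 14 did so on some arrays and 10 on none (Usp12, Usp13, Usp18, Usp25, Usp35, Usp40, Usp44, Usp45, Usp50 and Usp9y). All 51 entered the fit, with no filter on dim probe sets, and 41 passed the threshold in at least 1 of the 5 comparisons. The 10 that passed in none were Usp4, Usp18, Usp25, Usp27x, Usp35, Usp40, Usp42, Usp44, Usp45 and Usp9y. Replicates lay close together, with a median SD over members of 0.09 in untreated control, 0.10 in untreated mutant, 0.14 in treated control and 0.15 in treated mutant arrays. The widest spread was that of Usp10 in treated mutants, with an SD of 0.67 over 2 arrays.

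**Figure D1:**
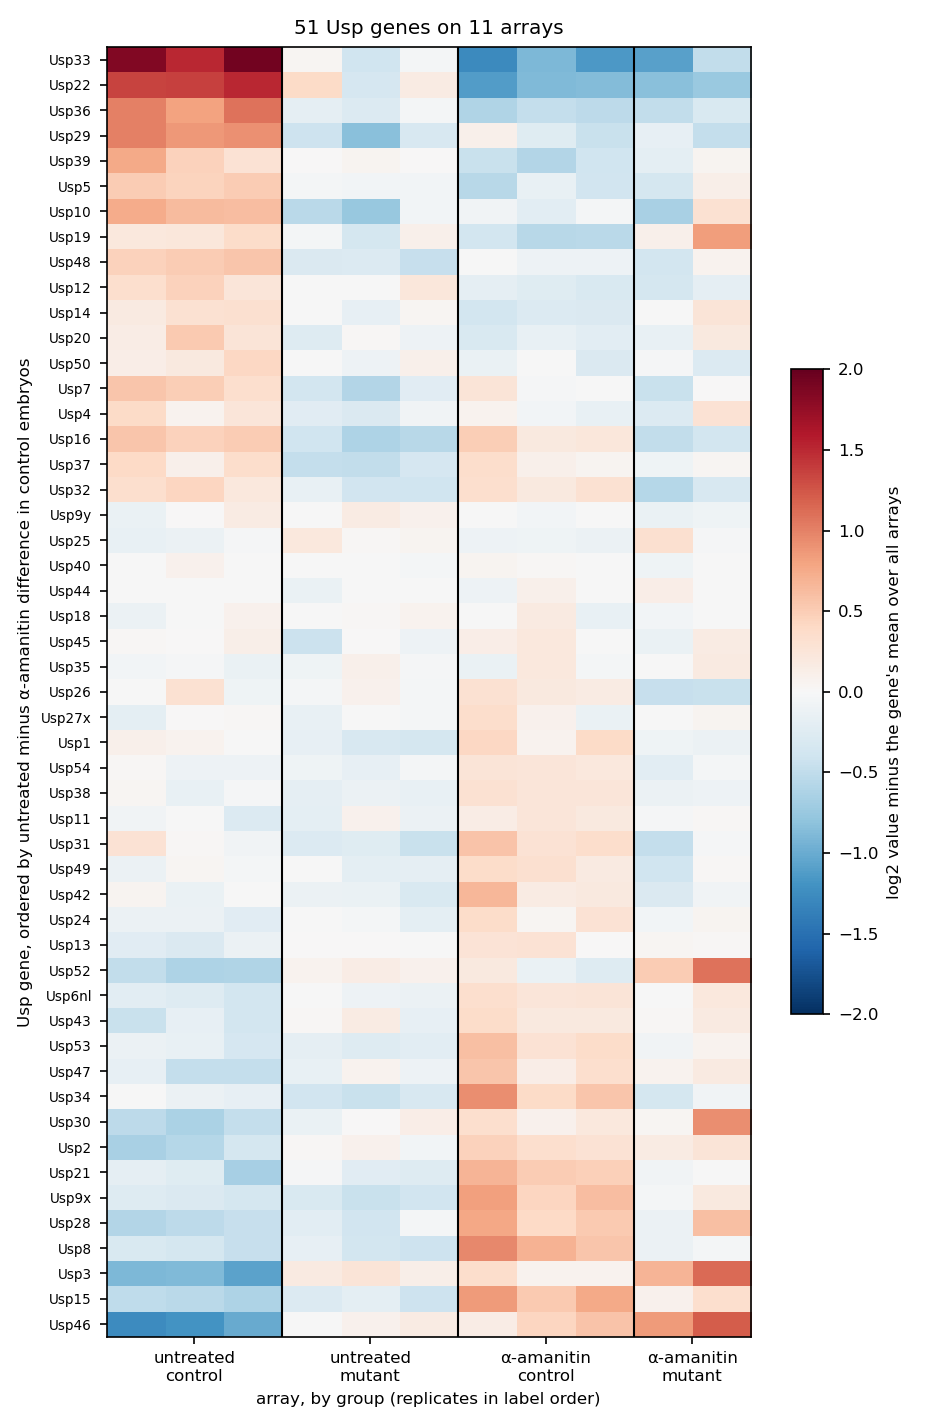
Log2 value of each Usp gene (rows) on each of the 11 arrays (columns, by group), minus the gene's mean over all arrays; rows run by the difference between untreated and α-amanitin control embryos. Usp33, Usp22, Usp36 and Usp29 were highest on the 3 untreated control arrays, and Usp46 and Usp3 were lowest there.

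The first comparison asked how Usp RNA differed between untreated embryos from eggs with and without Rnf2. Between untreated mutant and untreated control embryos, 4 Usp genes rose and 15 fell; rescaling by quantiles turned this into 15 that rose and 11 that fell, and cyclic loess into 10 and 16, while median centring left 4 and 15. Usp46, which with Wdr48 and Wdr20 acts on histones in Xenopus, and Usp3, an H2A and H2B deubiquitinase, had the largest rises. Usp33, which acts on the centrosome protein CP110 and on Robo receptors, and Usp29, a paternally expressed imprinted gene, had the largest falls. A threshold of 0.05 on limma's adjusted p was used, and for every member that passed, the control and mutant values did not overlap. Of all 34760 probe sets, 6.8% rose and 13.7% fell, and of the brightest probe set of each gene 8.57% and 16.6%. The members' 7.84% that rose lay near this background, and their 29.4% that fell lay above it. Under quantile normalization 29.4% of members rose beside 11.5% of all probe sets and 21.6% fell beside 10.4%, and under cyclic loess 19.6% rose beside 9.58%, so the nearness of the rises to the background did not hold there. In a fit of the brighter 50% of probe sets, which held 45 members, 13.3% of them rose beside 13.5% of that set, and 37.8% fell beside 28.7%. The median difference over the members was -0.08, beside 0.01 over all genes and -0.07 over the brighter 50% of probe sets. Each array holds a pool of 40 whole 2-cell embryos, so a change in some embryos cannot be told from a smaller change in all. The p-values measure the spread between these pools. In untreated mutants 7 of the 10 oocyte and 2-cell markers also rose and 1 fell, with summed log2 values of 79.7 to 81.1 in control and 85.0 to 87.4 in mutant arrays; their part in the Usp differences was not tested.

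Among the members that rose, Usp46 read 6.34, 6.39 and 6.59 on untreated control arrays and 7.58, 7.67 and 7.76 on untreated mutant arrays. With α-amanitin it read 7.74, 8.02 and 8.16 in control and 8.44 and 8.80 in mutant embryos. The untreated control arrays were the lowest of all 11 and the treated mutant arrays the highest. Untreated, the mutant minus control difference was 1.23 (SE 0.13), or 2.35-fold (adjusted p = 6.77e-05). Usp3 read 5.68, 5.70 and 5.51 in untreated control and 6.77, 6.84 and 6.70 in untreated mutant arrays. With treatment the values were 6.93, 6.65 and 6.66 in control and 7.27 and 7.72 in mutant arrays. Untreated control was again the lowest group, apart from the others, and treated mutant the highest. The untreated difference was 1.14 (SE 0.13), or 2.21-fold (adjusted p = 8.3e-05).

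Usp52, whose current RefSeq symbol is Pan2, is the catalytic subunit of the Pan2-Pan3 deadenylase, which shortens poly(A) tails, and has lost deubiquitinase activity. It read 6.01, 5.87 and 5.90 in untreated control and 6.56, 6.63 and 6.58 in untreated mutant arrays, without overlap. With α-amanitin the values were 6.69, 6.36 and 6.24 in control and 7.002 and 7.58 in mutant arrays, also without overlap. Untreated mutants were higher by 0.67 (SE 0.15) (adjusted p = 0.00813). Usp2, a deubiquitinase of Mdm2 and of circadian clock proteins, read 5.07, 5.15 and 5.37 in untreated control and 5.74, 5.80 and 5.66 in untreated mutant arrays. With the drug it read 6.18, 6.05 and 6.00 in control and 5.88 and 5.97 in mutant arrays, above every untreated array. Its untreated difference was 0.54 (SE 0.09) (adjusted p = 0.00189). The calls of Usp46, Usp3, Usp52 and Usp2 in untreated embryos held under all 20 alternatives.

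Among the members that fell, Usp33 read 8.18, 7.83 and 8.26 in untreated control and 6.36, 5.92 and 6.28 in untreated mutant arrays. With α-amanitin it read 5.06, 5.43 and 5.18 in control and 5.24 and 5.83 in mutant arrays. The untreated control arrays stood far above the other 3 groups, and untreated mutants lay above every treated array. Its untreated genotype difference was -1.90 (SE 0.18), a 3.74-fold lower value (adjusted p = 3.6e-05). Usp29 read 6.34, 6.19 and 6.25 in untreated control and 4.91, 4.50 and 5.00 in untreated mutant arrays. In treated embryos the gene read 5.43, 5.09 and 4.88 in control and 5.17 and 4.86 in mutant arrays, so untreated control stood above the rest, which overlapped. The untreated genotype difference was -1.46 (SE 0.16) (adjusted p = 8.89e-05).

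Usp22, the H2B deubiquitinase of the SAGA coactivator complex, read 6.96, 6.97 and 7.11 in untreated control and 5.99, 5.27 and 5.76 in untreated mutant arrays. With α-amanitin it read 4.49, 4.71 and 4.73 in control and 4.76 and 4.86 in mutant arrays. The groups without drug did not overlap each other or the treated arrays. Untreated mutants differed by -1.34 (SE 0.16) (adjusted p = 0.000123). Usp36, a nucleolar member, read 6.38, 6.17 and 6.44 in untreated control and 5.18, 5.08 and 5.33 in untreated mutant arrays. With the drug it read 4.76, 4.89 and 4.83 and 4.86 and 5.05 in control and mutant arrays, below every untreated array. The untreated genotype difference was -1.13 (SE 0.10) (adjusted p = 2.57e-05).

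Usp10, a cytoplasmic partner of G3bp1 that acts on p53, read 6.31, 6.19 and 6.18 in untreated control and 5.02, 4.80 and 5.52 in untreated mutant arrays. With α-amanitin it read 5.50, 5.36 and 5.53 in control and 4.92 and 5.87 in mutant arrays, where the replicates lay far apart. The untreated difference was -1.12 (SE 0.23) (adjusted p = 0.00437). Usp16, which removes ubiquitin from H2A, read 8.15, 8.05 and 8.09 in untreated control and 7.18, 6.97 and 7.04 in untreated mutant arrays. Under α-amanitin the readings were 8.09, 7.78 and 7.81 in control and 7.10 and 7.22 in mutant arrays. Mutants were lower than controls in both conditions without overlap, and treatment moved neither genotype past its replicates. The untreated difference was -1.03 (SE 0.10) (adjusted p = 3.89e-05). The other members that fell were Usp1, Usp5, Usp7, Usp14, Usp20, Usp32, Usp37, Usp39 and Usp48, with differences from -0.85 (Usp7) to -0.31 (Usp14). The probe set of Usp48 is uncertain, because its annotation row also carries a pair of predicted loci. The calls of Usp1, Usp14, Usp20, Usp32 and Usp39 were lost under at least 1 alternative, and Usp1 turned to 0.10 under quantile normalization (adjusted p = 0.66).

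**Figure D2:**
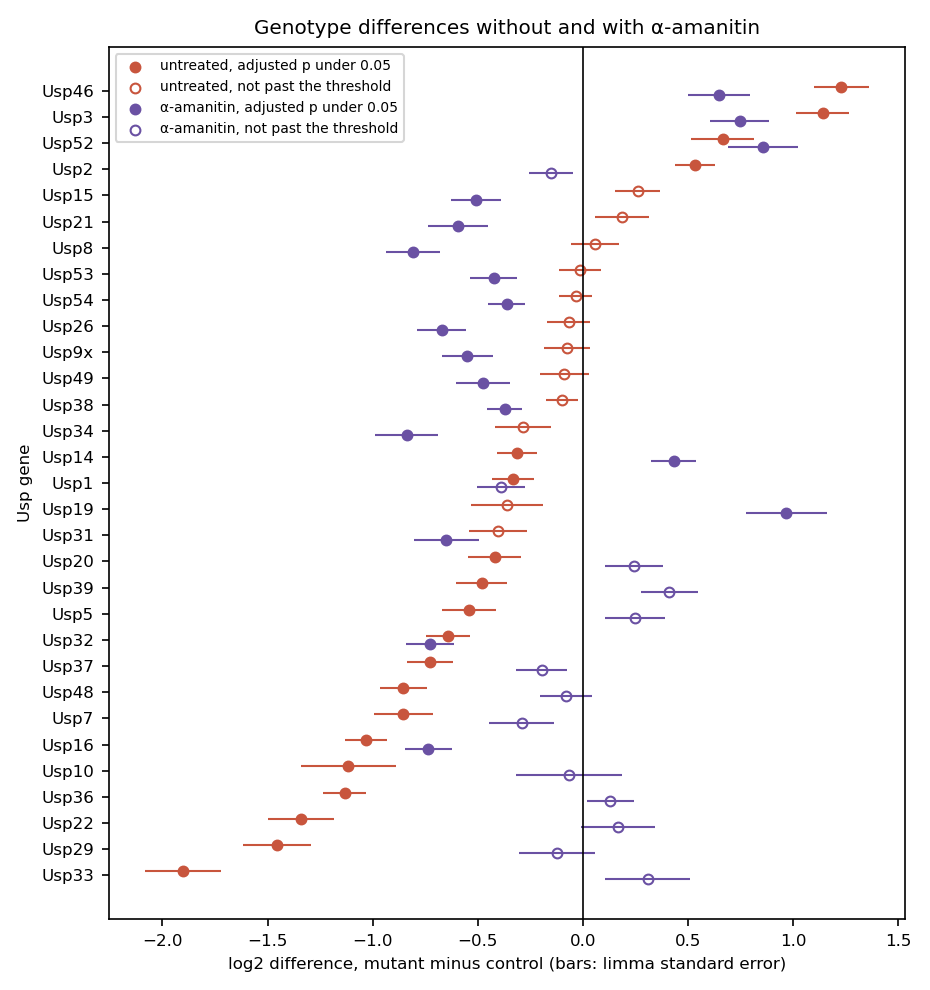
Log2 difference between mutant and control embryos, with limma's standard error, for the Usp genes past the threshold without or with α-amanitin (filled points, past it; open points, not). Usp46, Usp3 and Usp52 lay above 0 and Usp16 and Usp32 below 0 in both conditions, while Usp33, at -1.90 without the drug, was at 0.31 with it.

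The second comparison asked whether genotypes differed when RNA polymerase II was blocked, where the RNA left is that made before or despite the block. Between treated mutant and treated control embryos, 5 Usp genes rose and 13 fell, with a split of 5 to 16 under quantile normalization, 5 to 14 under cyclic loess and 5 to 13 under median centring. Usp19, Usp52, Usp3, Usp46 and Usp14 rose, and Usp34, Usp8, Usp16 and Usp32 had the largest falls. Of all probe sets 5.52% rose and 3.52% fell, and of genes 6.97% and 4.03%. The members' 9.80% that rose and 25.5% that fell thus stood beside lower shares, and among the brighter 50% of probe sets 11.1% of members rose beside 12.8%, and 33.3% fell beside 8.39%. The share that rose was near that of the brighter set, whereas the share that fell was above both. Under quantile normalization 6.41% of all probe sets rose and 6.68% fell, beside 9.8% and 31.4% of members. Cyclic loess gave 6.89% and 5.01%, beside 9.8% and 27.5% of members. The median difference over the members was -0.12, beside 0.02 over all genes and 0.03 over the brighter 50% of probe sets.

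These counts depended on single arrays. Without treated control replicate 1, 3 members rose and 5 fell, and without treated control replicate 3, 7 fell. Leaving out either treated mutant array leaves 1 array in that group, so only directions are given here. Without treated mutant replicate 2, the array with more probe sets above 6, fewer members and fewer of all probe sets rose, while more of all probe sets fell. Without treated mutant replicate 1, fewer members and fewer of all probe sets fell, while more of all probe sets rose. A fit of only the groups compared called 0 that rose and 5 that fell. Counts over all 34760 probe sets dropped as well, from 1920 that rose and 1224 that fell in the main fit to 836 and 395 in that fit. Without treated control replicate 1 they were 1503 and 719, and without treated control replicate 3 1005 fell. Usp16, Usp26, Usp32 and Usp8 kept their calls under every alternative. Summed log2 values of the 12 cumulus and granulosa markers were 52.3 to 53.5 in treated control and 55.0 to 55.5 in treated mutant arrays, those of the 6 sperm markers 26.5 to 27.2 and 27.2 to 27.4, and those of the 10 oocyte and 2-cell markers 76.2 to 77.4 and 80.0 to 82.7. The part of these markers in the Usp differences was not tested.

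Usp19, an enzyme anchored in the endoplasmic reticulum, read 7.39, 7.20 and 7.22 in treated controls and 7.87 and 8.61 in treated mutant arrays. Untreated, it read 7.98, 7.99 and 8.13 in control and 7.73, 7.42 and 7.87 in mutant arrays. Treated control was the lowest of the 4 groups, and treated mutant replicate 2 was the highest array. Its difference under the drug was 0.97 (SE 0.19) (adjusted p = 0.0104), and this was lost without that replicate or in a fit of the treated groups alone. Usp52, Usp3 and Usp46, whose values are given above, rose by 0.86, 0.75 and 0.65 (adjusted p = 0.00892, 0.00748 and 0.0191), and each call was lost in the same pair of fits, that of Usp46 also with array weights and without treated control replicate 1.

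Usp14, a proteasome-bound enzyme that trims ubiquitin chains, read 4.83, 4.94 and 4.92 in treated controls and 5.19 and 5.47 in treated mutant arrays. Without treatment it read 5.38, 5.52 and 5.53 in control and 5.20, 5.04 and 5.25 in mutant arrays. It was higher in mutants under the drug by 0.43 (SE 0.11) and lower in them without it by -0.31 (SE 0.10) (adjusted p = 0.0297 and 0.0413). Usp14 alone among the members passed in opposite directions in the genotype comparisons, and the treated call was lost under 6 and the untreated call under 12 of 20 alternatives.

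Among the members that fell under the drug, Usp34, which acts on axin in Wnt signalling, read 8.96, 8.41 and 8.58 in treated controls and 7.68 and 7.95 in treated mutant arrays. Untreated, it read 8.01, 7.91 and 7.87 in control and 7.65, 7.58 and 7.71 in mutant arrays, so treated control was the highest group. The treated difference was -0.84 (SE 0.15) (adjusted p = 0.00567), and it was lost in a fit of the treated groups alone. Usp8, an endosomal enzyme that acts on receptors such as EGFR, read 6.73, 6.46 and 6.32 in treated controls and 5.66 and 5.73 in treated mutant arrays. Without treatment it read 5.47, 5.41 and 5.30 in control and 5.61, 5.40 and 5.35 in mutant arrays, which overlapped. The treated difference was -0.81 (SE 0.13) (adjusted p = 0.00299).

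For Usp16, the difference under the drug was -0.74 (SE 0.11) (adjusted p = 0.0024). Usp32, a membrane-bound member, read 6.76, 6.61 and 6.73 in treated controls and 5.85 and 6.09 in treated mutant arrays. Untreated, it read 6.76, 6.85 and 6.64 in control and 6.27, 6.03 and 6.02 in mutant arrays, so mutants lay below controls in both conditions. Its differences were -0.73 (SE 0.12) with the drug and -0.64 (SE 0.10) without it (adjusted p = 0.00305 and 0.001).

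Usp26, an X-linked gene known from testis, read 5.62, 5.51 and 5.47 in treated controls and 4.85 and 4.87 in treated mutant arrays. Without treatment it read 5.30, 5.61 and 5.23 in control and 5.27, 5.40 and 5.28 in mutant arrays, and the treated mutant pair was the lowest of the 11. The treated difference was -0.67 (SE 0.12) (adjusted p = 0.00464). Usp31 read 7.53, 7.25 and 7.32 in treated controls and 6.49 and 6.94 in treated mutant arrays, and 7.25, 6.98 and 6.89 and 6.68, 6.71 and 6.52 in untreated control and mutant arrays. Treated mutants were lower by -0.65 (SE 0.15) (adjusted p = 0.0241), a call lost under 5 of 20 alternatives. The other members that fell were Usp9x, Usp15, Usp21, Usp38, Usp49, Usp53 and Usp54, with differences from -0.59 (Usp21) to -0.36 (Usp54); the second probe set of Usp54 differed by -0.21 and did not pass.

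The genotype comparisons without and with α-amanitin share no array, so their calls can be set beside each other. Usp3, Usp46 and Usp52 rose in both, which was 75% of the 4 that rose untreated and 60% of the 5 that rose treated, beside 30.5% and 37.5% for all genes. Usp16 and Usp32 fell in both, which was 13.3% of 15 and 15.4% of 13, beside 6.94% and 28.5% for all genes. Thus 2 enzymes with the same histone substrate moved oppositely in both conditions, since Usp3 rose and Usp16 fell.

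The third comparison asked how Usp RNA in control embryos differed without and with the drug. When untreated embryos were harvested is not given, so the drug and any difference in harvest time cannot be told apart. Between untreated and α-amanitin control embryos, 13 Usp genes were higher and 20 lower without the drug, and the split was 11 to 28 under quantile normalization, 15 to 22 under cyclic loess and 13 to 20 under median centring. Usp33, Usp22, Usp36 and Usp29 were highest relative to the drug, and Usp46, Usp15, Usp3 and Usp8 lowest. Of all probe sets 15.9% were higher and 11.4% lower, and of genes 19.3% and 14.1%. The members' 25.5% and 39.2% stood above both, but among the brighter 50% of probe sets 31.1% of members were higher beside 31.4%, while 48.9% were lower beside 21.9%. Under quantile normalization 13.6% of all probe sets were higher and 17.8% lower, beside 21.6% and 54.9% of members. Cyclic loess gave 16.7% and 13.1%, beside 29.4% and 43.1% of members. The median over the members was -0.15, beside -0.04 over all genes and 0.02 over the brighter 50% of probe sets. The untreated control arrays enter both this comparison and the first, so the values of each are given side by side with no overlap of calls. Of the 33 calls, 25 held under every alternative. Among the oocyte and 2-cell markers 4 were higher and 6 lower without the drug, with summed values of 79.7 to 81.1 untreated and 76.2 to 77.4 treated; their part in the Usp differences was not tested.

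Of the members that were higher without the drug, Usp33 differed by 2.87 (SE 0.18), or 7.3-fold (adjusted p = 5.72e-07). For Usp22 the difference was 2.37 (SE 0.16), or 5.17-fold (adjusted p = 7.77e-07). Usp36 differed by 1.501 (SE 0.10) and Usp29 by 1.13 (SE 0.16) (adjusted p = 8.32e-07 and 0.000266). In all 4, every untreated control array stood above every other array. Usp39, a spliceosome protein without deubiquitinase activity, read 6.46, 6.17 and 5.99 in untreated and 5.26, 5.11 and 5.30 in treated control arrays. In mutants it read 5.71, 5.76 and 5.71 untreated and 5.51 and 5.76 treated, which overlapped. Its control difference was 0.98 (SE 0.12) (adjusted p = 8.67e-05).

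Usp5, which takes apart free ubiquitin chains, read 5.45, 5.38 and 5.45 in untreated and 4.37, 4.78 and 4.56 in treated control arrays, without overlap. In mutants it read 4.90, 4.87 and 4.88 untreated and 4.58 and 5.06 treated, and the treated pair lay on either side of the untreated values. The control difference was 0.86 (SE 0.13) (adjusted p = 0.000358). The other members that were higher without the drug were Usp10, Usp12, Usp14, Usp19, Usp20, Usp48 and Usp50, from 0.39 (Usp50) to 0.77 (Usp10), and the Usp10 call was lost without any one of the untreated or treated control arrays.

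On the lower side, Usp46 differed by -1.53 (SE 0.13), or 2.9-fold lower without the drug (adjusted p = 4.86e-06), and Usp3 by -1.12 (SE 0.13) (adjusted p = 4.16e-05). Usp15, which acts on TGF-β receptor complexes and on a spliceosome protein, read 7.20, 7.17 and 7.09 in untreated and 8.56, 8.24 and 8.46 in treated control arrays. In mutants it read 7.43, 7.51 and 7.30 untreated and 7.79 and 8.04 treated. Treated arrays were higher in both genotypes without overlap. The control difference was -1.27 (SE 0.11) (adjusted p = 4.4e-06), and that of Usp8 was -1.11 (SE 0.11) (adjusted p = 2.13e-05).

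Usp28, known for acting on Myc and on proteins of the DNA damage checkpoint, read 6.99, 7.04 and 7.12 in untreated and 8.35, 7.98 and 8.10 in treated control arrays, without overlap. In mutants it read 7.37, 7.18 and 7.54 untreated and 7.46 and 8.18 treated, and these overlapped. Its control difference was -1.09 (SE 0.17) (adjusted p = 0.000494). Usp9x, the X-linked relative of Drosophila fat facets, read 7.95, 7.91 and 7.85 in untreated and 9.03, 8.64 and 8.83 in treated control arrays. In mutants it read 7.90, 7.76 and 7.82 untreated and 8.16 and 8.41 treated, so treated arrays were higher in both genotypes. The control difference was -0.93 (SE 0.11) (adjusted p = 5.52e-05). The remaining 14 that were lower without the drug ranged from -0.91 (Usp21) to -0.30 (Usp54). The second probe set of Usp54 was also lower, by -0.41, and that of Usp24 differed by -0.18 and did not pass.

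**Figure D3:**
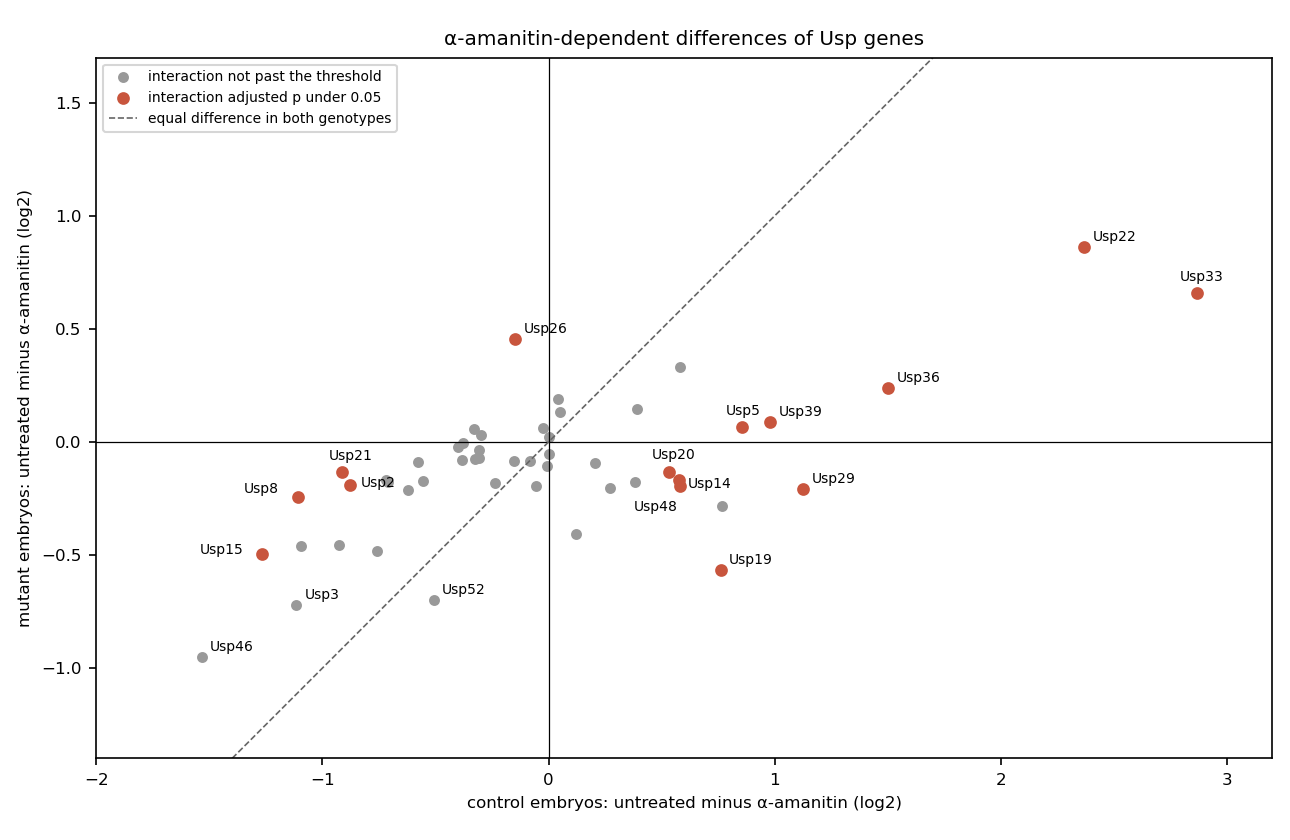
Log2 difference between untreated and α-amanitin embryos in control (horizontal axis) and mutant embryos (vertical axis) for the 51 Usp genes; points off the dashed line differ between genotypes, and red points passed the test of that difference. Usp33 was at 2.87 in control and 0.66 in mutant embryos, and Usp46 at -1.53 and -0.95.

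The fourth comparison asked the same in mutant embryos. There 1 Usp gene was higher without the drug and 4 were lower, with splits of 3 to 5 under quantile normalization, 3 to 3 under cyclic loess and 2 to 2 under median centring. Usp22 was higher by 0.86 (SE 0.18), or 1.82-fold (adjusted p = 0.0241). Usp46, Usp3, Usp52 and Usp15 were lower, by -0.95 (SE 0.15), -0.72 (SE 0.14), -0.70 (SE 0.17) and -0.50 (SE 0.12) (adjusted p = 0.00547, 0.0198, 0.0479 and 0.0488). Of all probe sets 2.55% were higher and 1.02% lower, and of genes 2.63% and 1.1%. The members' shares were 1.96% and 7.84%, and among the brighter 50% of probe sets 4.44% of members were higher beside 6.25% and 11.1% lower beside 3.65%. Under quantile normalization 3.71% of all probe sets were higher and 2.55% lower, beside 5.88% and 9.8% of members. Cyclic loess gave 3.97% and 1.33%, beside 5.88% and 5.88% of members. Median centring gave 2.13% and 0.849%, beside 3.92% and 3.92% of members. The members' median was -0.11, beside -0.03 over all genes and -0.06 over the brighter 50% of probe sets. Among the 10 oocyte and 2-cell markers 2 were higher without the drug, with summed log2 values of 85.0 to 87.4 untreated and 80.0 to 82.7 treated in mutants; their part in the Usp differences was not tested.

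None of these 5 calls in mutants held under every alternative. A fit of only the mutant arrays called 137 higher and 5 lower of all 34760 probe sets, and 0 members in either direction. Without untreated mutant replicate 1 or untreated mutant replicate 3 the number that was lower was 1. It was 2 without untreated mutant replicate 2, treated control replicate 3 or any 1 of the untreated control arrays. The number that was higher was 2 without untreated control replicate 2, beside 767 of all probe sets. It was 0 without untreated mutant replicate 1 or 3, beside 531 and 621. Leaving out either treated mutant array leaves 1 array in that group, so only directions are given here. Without treated mutant replicate 1 more members and more of all probe sets were lower, and without replicate 2 fewer of both. Without either of them, fewer members and fewer of all probe sets were higher. Over all probe sets 885 were higher and 353 lower in the main fit. Without untreated mutant replicates 1, 2 and 3 the numbers lower were 112, 186 and 171. They were 284 without treated control replicate 3 and 221 to 271 without an untreated control array. The treatment comparisons share no array, but they share 1 estimate of each probe set's spread, so their calls are not independent. Usp22 was higher, and Usp3, Usp15, Usp46 and Usp52 were lower, in both genotypes. These last 4 made up 20% of the 20 that were lower in controls and 100% of the 4 that were lower in mutants, beside 4.92% and 63.1% for all genes.

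The last comparison tested whether the treatment difference itself differed between genotypes. The untreated minus treated value was lower in mutants than in controls for 10 Usp genes and higher for 5, and this split became 7 and 21 under quantile normalization and 11 and 13 under cyclic loess, but stayed 10 and 5 under median centring. Of the 5 with a higher value, Usp8, Usp2, Usp15 and Usp21 had negative differences in both genotypes that lay nearer 0 in mutants, as with Usp8 at -1.11 in control and -0.24 in mutant embryos, while Usp26 was at -0.15 and 0.46. Usp33, at -2.21 (SE 0.27) (adjusted p = 0.000359), and Usp22, at -1.51 (SE 0.24) (adjusted p = 0.00139), had the largest absolute values. The next were Usp29 at -1.33 (SE 0.24), Usp19 at -1.33 (SE 0.26), Usp36 at -1.26 (SE 0.15) and Usp39 at -0.89 (SE 0.18) (adjusted p = 0.00348, 0.00529, 0.000304 and 0.00674). Usp39 lost its call under quantile normalization. Of all probe sets 10.9% were lower and 3.47% higher, of genes 13.5% and 4.15%, and of members 19.6% and 9.80%. Under quantile normalization 8.19% of all probe sets were lower and 9.56% higher, beside 13.7% and 41.2% of members. Cyclic loess gave 11% and 6.3%, beside 21.6% and 25.5% of members. Among the brighter 50% of probe sets 26.7% of members were lower beside 23.8%, and 13.3% higher beside 7.94%. Without treated control replicate 2 the number of members with a higher value in mutants was 8, beside 1042 of all probe sets and 1205 in the main fit. Leaving out a treated mutant array leaves 1 array in that group, so only directions are given here. Without treated mutant replicate 1 fewer members and fewer of all probe sets had a higher value, and without replicate 2 more of both. Because the 4 groups enter both this test and the others, its calls are no separate evidence for theirs.

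**Figure D4:**
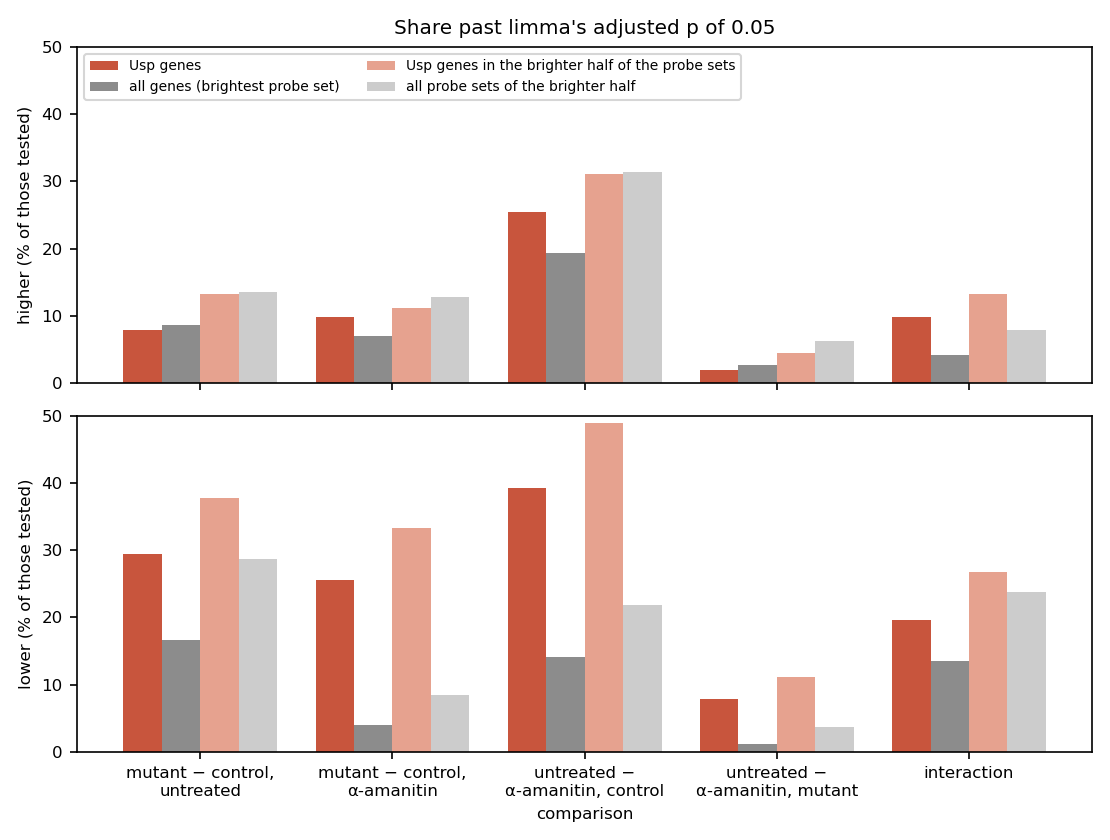
Percent of Usp genes past limma's adjusted p of 0.05 in each comparison (red), beside that of all genes by their brightest probe set (dark grey), and the same for the 45 Usp genes and all probe sets of the brighter 50% (light red and light grey). Among treated embryos 25.5% of Usp genes fell in mutants beside 4.03% of genes; the split between higher and lower turns under quantile normalization in the untreated genotype comparison and the interaction, and also under cyclic loess in the interaction.

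The histone deubiquitinases were read as a group. Their list, like the others here, was drawn up with earlier results of these data known and is described by counts alone. It held 10 genes, of which 9 were members; Usp51 was annotated under another symbol. Without the drug 2 rose in mutants (Usp3 and Usp46) and 2 fell (Usp16 and Usp22), and with it 2 rose (Usp3 and Usp46) and 3 fell (Usp16, Usp21 and Usp49). In control embryos 2 were higher without the drug (Usp12 and Usp22) and 4 lower (Usp3, Usp21, Usp46 and Usp51). The median genotype difference over the list was -0.03 untreated and -0.05 treated. Of all genes 8.57% rose and 16.6% fell untreated, and 6.97% and 4.03% treated. In control embryos 19.3% of genes were higher and 14.1% lower without the drug. The counts of this short list are thus given as a description.

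Usp21, an H2A deubiquitinase, read 6.46, 6.40 and 5.97 in untreated control and 6.61, 6.40 and 6.38 in untreated mutant arrays. With the drug it read 7.31, 7.14 and 7.11 in control and 6.57 and 6.62 in mutant arrays. Treated control was the highest group, without overlap with any other. The treated genotype difference was -0.59 (SE 0.14) (adjusted p = 0.0267), and the untreated one was 0.19 (SE 0.13) (adjusted p = 0.398); the treated call was lost under 7 of 20 alternatives. Usp49, an H2B deubiquitinase, read 6.03, 6.17 and 6.10 in untreated control and 6.14, 5.94 and 5.96 in untreated mutant arrays. Treated embryos gave 6.52, 6.46 and 6.32 in control and 5.74 and 6.17 in mutant arrays, and the genotypes did not overlap. The treated difference was -0.47 (SE 0.13) (adjusted p = 0.0444), a call lost under 14 of 20 alternatives.

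Usp12, the close relative of Usp46 that also works with Wdr48, read 4.94, 5.06 and 4.85 in untreated control and 4.60, 4.60 and 4.83 in untreated mutant arrays. With the drug it read 4.43, 4.37 and 4.31 in control and 4.26 and 4.43 in mutant arrays. Untreated arrays were higher than treated ones in both genotypes, though every value was at or below the arrays' 75th percentile. The control treatment difference was 0.58 (SE 0.10) (adjusted p = 0.000683), opposite in sign to that of Usp46, and the untreated genotype difference of -0.27 (SE 0.10) did not pass (adjusted p = 0.0697).

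Usp27x, an X-linked relative of Usp22 that binds the same SAGA partners, read 4.88, 5.09 and 5.10 in untreated control and 4.93, 5.07 and 5.04 in untreated mutant arrays. Under the drug it was at 5.43, 5.16 and 4.93 in control and 5.07 and 5.13 in mutant arrays, and the groups overlapped. Usp44, an H2B deubiquitinase of the mitotic checkpoint, read 4.19, 4.19 and 4.19 and 4.06, 4.19 and 4.19 in untreated control and mutant arrays. Its treated values were 4.10, 4.30 and 4.19 in control and 4.32 and 4.19 in mutant arrays, and 7 of 11 arrays held the same value to 5 decimals. Neither gene passed in any comparison.

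Of the members known to associate with PRC1, Usp7, which also acts on Mdm2, read 8.84, 8.79 and 8.62 in untreated control and 7.92, 7.70 and 8.06 in untreated mutant arrays. Under α-amanitin the readings were 8.55, 8.26 and 8.28 in control and 7.85 and 8.30 in mutant arrays, which overlapped. The untreated difference was -0.85 (SE 0.14), or 1.81-fold lower (adjusted p = 0.0011), and it held under all alternatives. Usp11 read 4.68, 4.74 and 4.47 in untreated control and 4.55, 4.84 and 4.63 in untreated mutant arrays. Its treated values were 4.89, 4.98 and 4.93 in control and 4.72 and 4.77 in mutant arrays. Untreated genotypes overlapped, with a difference of 0.05 (SE 0.10) (adjusted p = 0.831), and the control treatment difference was -0.31 (SE 0.10) (adjusted p = 0.0383), lost under 6 of 20 alternatives.

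**Figure D5:**
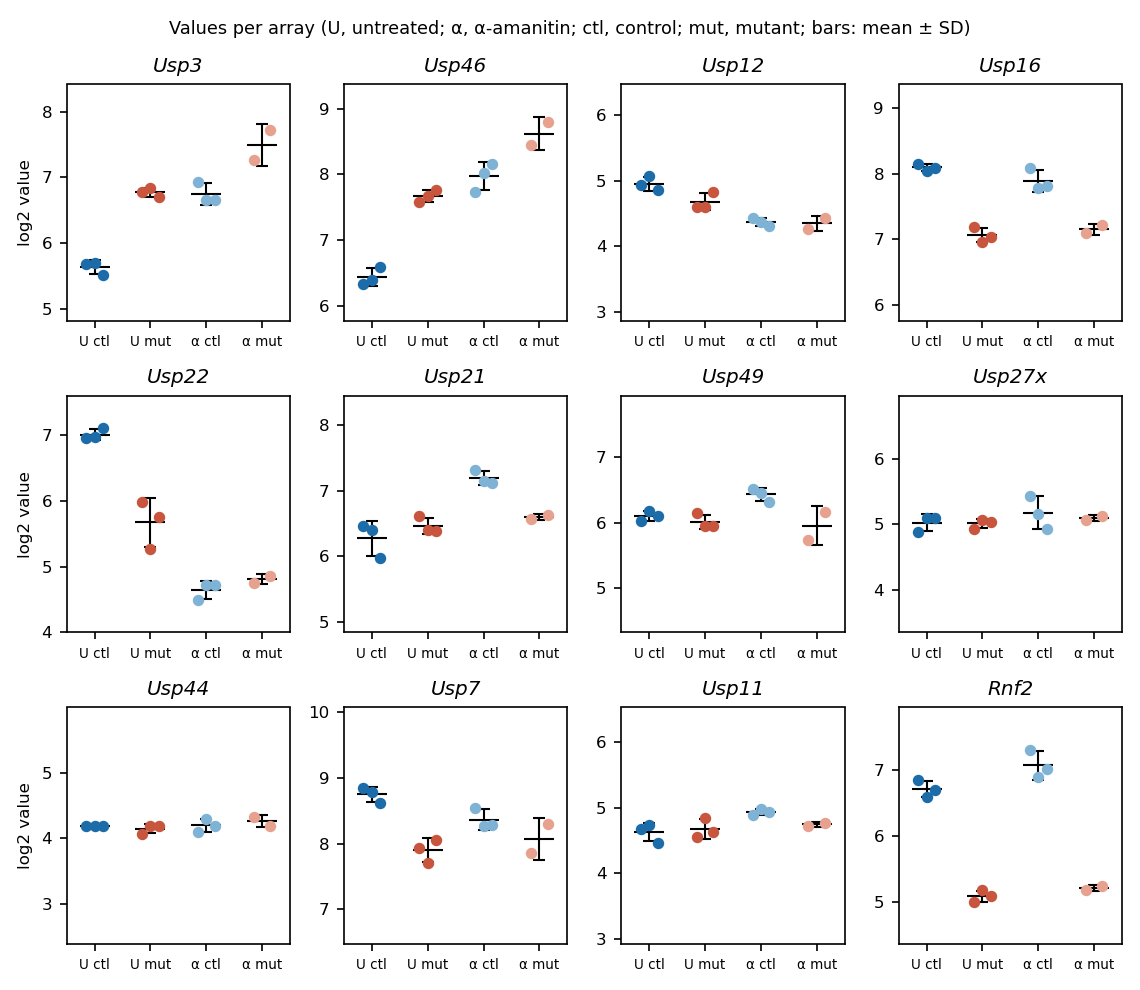
Log2 values on each array (points) with the group mean ± SD (bars) for 9 histone deubiquitinases, the PRC1-associated Usp7 and Usp11, and Rnf2; every panel spans the same number of log2 units. Usp16 and Rnf2 were lower in both mutant groups, and Usp3 and Usp46 higher.

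The other role groups are given by their counts, as a description. Over all genes 8.57% rose and 16.6% fell in untreated mutants, and 6.97% and 4.03% in treated ones. Of 7 members of membrane traffic, mitochondria and the endoplasmic reticulum, 3 fell in untreated mutants (Usp10, Usp20 and Usp33), and under the drug Usp19 rose while Usp8 and Usp9x fell. Of 4 linked to splicing and the nucleolus, Usp39 and Usp36 fell in untreated mutants and Usp15 fell in treated ones. Of 7 linked to DNA repair, checkpoints and mitosis, 3 fell in untreated mutants, namely Usp1, which acts on FANCD2 and PCNA, Usp37, which acts on cyclin A, and Usp48. Usp37 differed by -0.73 (SE 0.11) (adjusted p = 0.000633), Usp48 by -0.85 (SE 0.11) (adjusted p = 0.000246) and Usp1 by -0.33 (SE 0.10) (adjusted p = 0.0395). None of these 7 passed between treated genotypes. Of 3 linked to the proteasome and free chains, Usp5 and Usp14 fell in untreated mutants, and Usp13 passed only in control embryos, where it was lower without the drug by -0.40 (SE 0.09) (adjusted p = 0.00591). A list of 5 members drawn up as lacking deubiquitinase activity gave 1 that fell in untreated mutants (Usp39) and 2 in treated mutants (Usp53 and Usp54). The treated calls of Usp53 and Usp54 were lost under 13 and 9 of 20 alternatives. That lack of activity was not checked here and may not hold for Usp53 and Usp54. Usp52, also described above as without it, was left off the list and rose by 0.67 in untreated and 0.86 in treated mutants. Usp6nl on this list is a RabGAP-type gene named for likeness to the N-terminus of USP6. The Y-linked Usp9y stayed between 3.97 and 4.28 on all 11 arrays.

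Partners of Usp enzymes were read from a list of 7 genes, of which 0 rose and 4 fell in untreated mutants. Those that fell were Atxn7 and Atxn7l3, which hold Usp22 in SAGA, G3bp1, the Usp10 partner, and Gmps, which binds Usp7, with differences of -0.93 (SE 0.14), -1.22 (SE 0.11), -1.89 (SE 0.20) and -0.62 (SE 0.12). In treated mutants Eny2, another SAGA partner of Usp22, rose by 0.80 (SE 0.12), and Wdr48 and Wdr20, activators of Usp46 and Usp12, fell by 0.56 and 0.85 on the log2 scale (adjusted p = 0.0211 and 0.00351). Usp46 thus rose in treated mutants in which its activators fell, by calls of uneven standing. The partner calls were not checked under the alternatives, and that of Usp46 was lost under 4 of 20. In control embryos 4 partners were higher without the drug and 2 lower, namely Wdr48 and Wdr20. Over all genes 19.3% were higher and 14.1% lower there. Between genotypes 8.57% of genes rose and 16.6% fell untreated, and 6.97% and 4.03% treated.

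Genes listed under the other deubiquitinase classes, 37 measured of 46, gave 3 that rose and 12 that fell in untreated mutants. Their median was -0.01, beside -0.08 for the Usp genes. Not all are active deubiquitinases, since the list counts related subunits such as Psmd7, Cops6 and Prpf8. These subunits were among the 12 that fell, and Psmd7 and Prpf8 were among those that rose in treated mutants. In treated mutants 8 of the 37 rose and 2 fell, beside 5 and 13 of the 51 Usp genes, with medians of 0.05 and -0.12. Between untreated and treated control embryos 13 were higher and 7 lower, beside 13 and 20 Usp genes and 19.3% and 14.1% of all genes. The JAMM list, which holds metalloproteases and related subunits of the proteasome lid, the COP9 signalosome and eIF3, had 11 measured genes. Of these, 1 rose and 7 fell in untreated mutants, and 4 rose and 0 fell in treated ones, with medians of -1.09 and 0.34. Over all genes 8.57% rose and 16.6% fell untreated, and 6.97% and 4.03% treated. On the JAMM list, Psmd14, the proteasome's own deubiquitinase, fell by 1.90 on the log2 scale in untreated mutants, and Mysm1, which removes ubiquitin from H2A, by 1.23 (adjusted p = 4.77e-05 and 0.000129). The difference between the classes was not tested, and calls of genes outside the Usp members were not checked under the alternatives.

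Exact permutation tests on single genes could not pass 0.05 at these group sizes, since the smallest two-sided p, counting absolute differences, that 3 arrays against 3, or 3 against 2, allow is 0.1. Groups that did not overlap were found for 33 of 51 members between untreated genotypes, beside 41.3% of all genes, and for 29 between treated genotypes, beside 33.3%. Between untreated and treated embryos they were found for 38 in controls, beside 47.3%, and for 18 in mutants, beside 28%.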

How the data were processed

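Late 2-cell mouse embryos were measured on 11 Affymetrix arrays in 4 groups by title. The authors deposited log2 values, which ran from 1.11 to 12.8. R 2.10.0 and affy were used, per the submitters' processing notes. How background was corrected and arrays were normalized is not given in the sources used. No change was made to the deposited log2 values before the test.

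The deposited annotation gave 1 symbol to 23146 of 34760 probe sets, more than 1 to 1466 and no symbol to 10148, of which 31 were absent from it. Members were the Usp genes by symbol, each read by its brightest probe set. All 51 were found in the RefSeq gene table, and 1 (Usp52) has another symbol there. Coordinates come from RefSeq's promoter table on GRCm38.p6.

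All 34760 probe sets and 11 arrays were fitted in limma 3.58.1 (R 4.3.3; lmFit with 1 mean per group, then eBayes, with 7 residual degrees of freedom), and p-values were adjusted by Benjamini-Hochberg over all probe sets, with a threshold of 0.05. Two-group differences and their interaction were contrasts of this fit. The untreated groups share arrays with the treatment comparisons, so the comparisons are not independent of each other. Alternatives were quantile normalization, median centring, cyclic loess, the brighter 50% of probe sets, only the groups compared, a mean-variance trend, array weights, the replicate number as a block, the mean of all probe sets of a gene, and each of 11 arrays left out in turn. The steps were tested on simulated data. Replicates are pools of embryos, and precision is limited by how few arrays there were.

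Values on every array are given for up to 6 rises and 6 falls per two-group comparison, taken by size among members past the threshold with no overlap, for up to 6 members in the interaction, and for all histone and PRC1-associated members; others are given by count and range. The members, the role lists and the tests were chosen with earlier results of these data known. Tables were handled in Python 3.11.15 with pandas 2.3.3.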

Additional observations from a re-analysis of the deposited data

Results flagged for a closer look

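For 15 Usp genes the difference between untreated and α-amanitin embryos differed between genotypes by the interaction test (limma, adjusted p under 0.05). It was lower in mutant than in control embryos for Usp33 at -2.21, Usp22 at -1.51, Usp29 at -1.33, Usp19 at -1.33 and Usp36 at -1.26. Smaller negative values were found for Usp39 at -0.89, Usp5 at -0.79, Usp48 at -0.77, Usp14 at -0.74 and Usp20 at -0.66. The value was positive for Usp8 at 0.87, Usp21 at 0.78, Usp15 at 0.77, Usp2 at 0.69 and Usp26 at 0.60. Without the drug Usp33 was higher than with it by 2.87 in control and 0.66 in mutant embryos, whereas Usp8 was at -1.11 and -0.24. Usp2, Usp8, Usp14, Usp15, Usp19, Usp22, Usp29, Usp33 and Usp36 kept the interaction call under every alternative.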

How the results depend on the processing

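Of 1785 alternative values of single Usp genes past the threshold, 1589 kept their call and direction, 195 lost the call and 1 reversed, that of Usp1 between untreated genotypes (0.10 under quantile normalization); the cause was not tested. The calls that held under all alternatives were 14 of 19 between untreated genotypes, 4 of 18 between treated genotypes, 25 of 33 for treatment in controls, 0 of 5 for treatment in mutants and 9 of 15 for the interaction. Counts of members that fell between untreated genotypes, of both directions in control treatment and of the lower interaction calls stayed within 1.5 times under every alternative. Under quantile normalization 15 rose between untreated genotypes in place of 4, and 3 were higher in mutant treatment in place of 1. A higher interaction was found for 21 in place of 5. Cyclic loess gave 10, 3 and 13. The same shares of all probe sets were 6.8%, 2.55% and 3.47% in the main fit. They were 11.5%, 3.71% and 9.56% under quantile normalization, and 9.58%, 3.97% and 6.3% under cyclic loess. Median centring gave 2 higher and 2 lower in mutant treatment, and the brighter 50% of probe sets 2 higher. The mean of all probe sets gave 2 higher in mutant treatment and 10 in the interaction. With only the groups compared, which leaves fewer arrays to estimate the spread, 0 rose and 5 fell between treated genotypes. In mutant treatment 0 were higher and 0 lower. Over all probe sets that fit called 836 and 395 between treated genotypes, and 137 and 5 in mutant treatment. Array weights gave 3 and 6 members between treated genotypes, beside 1346 and 704 probe sets, and 0 and 2 in mutant treatment, beside 475 and 83. A mean-variance trend gave 7 members that fell between treated genotypes, beside 1051 probe sets, and 2 lower in mutant treatment, beside 244.

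With 1 array left out, 0 to 6 rose and 5 to 12 fell between treated genotypes, 0 to 2 were higher and 1 to 8 lower in mutant treatment, and 3 to 10 had a higher interaction. The replicate number as a block gave 0 higher and 1 lower in mutant treatment and moved no other count of calls by over 1.5 times. Whether the numbers pair the samples is not settled. Of 15 same-numbered pairs 3 had correlated deviations above 0.1, with r from -0.22 to 0.15. Among the groups of 3 arrays, same-numbered pairs had r from 0.03 to 0.15 and different-numbered pairs from -0.12 to 0.04. The 2 treated mutant arrays deviate from their mean as mirror images, so their pairs cannot decide this. The deposited values mark no probe set as below background. With 2 treated mutant arrays, a lone array in a left-out fit is assumed to vary like the other groups. An equal change of all RNA in an embryo would not be seen.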

Other observations

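Several relatives of the Usp genes were annotated under other symbols and so lay outside the rule, and their calls were not checked under the alternatives. Uspl1, a Usp-like enzyme known to act on SUMO, was lower in untreated mutants by -1.95 (SE 0.18) (adjusted p = 2.95e-05) and higher in untreated than in treated controls by 2.97 (SE 0.18) (adjusted p = 4.2e-07). Usp17lb, of the Dub gene cluster, was higher without the drug in control embryos by 2.00 (SE 0.25) and in mutants by 2.24 (SE 0.28) (adjusted p = 8.69e-05 and 0.0018), and near-identical copies in that cluster make its reading uncertain. Usp17lc rose in untreated mutants by 0.72 (SE 0.15) (adjusted p = 0.00433), with the same uncertainty. Usp51, a histone deubiquitinase, was lower in untreated than in treated controls by -0.80 (SE 0.14) (adjusted p = 0.000907). Cyld, which acts on NF-κB signalling proteins, was lower there by -0.41 (SE 0.12) (adjusted p = 0.0301).

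Some dim members held the same deposited value, to 5 decimals, on more than 2 arrays, namely Usp44 on 7 arrays, Usp18 and Usp40 on 4 and Usp9y on 3. Such repeats were found in 18.2% of all probe sets and in 7.84% of members.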
